A study of Mus musculus with 6 samples.

Results

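The 45 imprinted genes described here were taken by symbol from a fixed list, out of 23366 genes counted in each library, and all 45 symbols were found. By their usual parental class, 24 are paternally expressed and 21 maternally expressed. The libraries came from EpCAM-positive epithelial cells of the small intestine of mouse embryos at embryonic day 13.5 (E13.5), with 500 cells sorted for each. The 3 mutant libraries carried *Shh-cre-egfp:Tcf7l1 lox/lox*, in which Cre is driven from the *Shh* locus and removes a floxed exon of *Tcf7l1*, a TCF/LEF transcription factor of the WNT pathway. The 3 wild type libraries had neither Cre nor floxed alleles stated in their labels, and no group with Cre and intact *Tcf7l1* was part of the comparison. No embryo received a treatment. The comparison asked how expression in the embryonic gut epithelium differed when *Tcf7l1* was lost there.

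An imprinted gene is transcribed mainly from the copy inherited from one parent, because DNA methylation laid down in the egg or sperm at an imprinting control region marks that copy. The genes lie in clusters, in which a long non-coding RNA or an insulator often links the expression of neighbouring genes. Many act in fetal growth, with paternally expressed genes such as *Igf2* promoting it and maternally expressed genes such as *Igf2r*, *Cdkn1c* and *Grb10* restraining it. Several members are imprinted only in certain tissues, such as *Ube3a* in neurons. The read counts do not separate the parental copies, so the classes are background knowledge and no loss or gain of imprinting could be measured.

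The total counts lay between 18216537 and 20397278 per library. *Tcf7l1* itself fell from 438 ± 64.1 normalized counts (SD, n = 3) to 49.1 ± 21.1 (SD, n = 3), with a log2 fold change of -3.16 (SE 0.26). *Shh*, the locus that holds the Cre, was at 481 ± 65.8 normalized counts in wild type and also fell, to 198 ± 22.6 (log2 fold change -1.28). The wild type libraries had between 1837 and 2254 counts of the Y-linked gene *Ddx3y* and 0 of *Xist*, whereas the mutant libraries had 0 counts of *Ddx3y* and 229 to 424 of *Xist*. Genotype and sex therefore cannot be told apart in any result below. Within the genotype, loss of *Tcf7l1* and the Cre allele at *Shh* cannot be told apart either. The sources used here give neither the litters nor the strain background. The epithelial marker list, which includes *Epcam*, *Cdh1* and *Krt8*, had all 12 of 12 genes tested and summed to 186162 to 197347 normalized counts in wild type, against 185705 to 190063 in mutant libraries. Of these 12 genes, *Cdh1*, *Krt18* and *Cdx2* were called lower (25%, beside 5.83% of all genes) and none higher (2.78% of all genes). An adjusted p under 0.05 in edgeR was reached by 4 that were higher and by 6 that were lower (33.3% and 50%, beside 13.6% and 15.1%). No overlap between groups was seen for 10 (83.3%, beside 43% of all genes), so the sum does not stand for its members. In bulk libraries, fewer cells of a type and less RNA per cell cannot be told apart.

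Other cell types were checked by lists of their markers. The mesenchyme list had 18 of its 19 genes in the files, of which 1 was at 0 in all libraries and 6 never reached 10 counts, and its sum was 2115 to 2513 normalized counts in wild type, against 1488 to 1634 in mutant libraries. *Vim* and *Fn1*, which epithelial cells can also express, made up most of that sum, with *Vim* at 1250 to 1490 counts in wild type, against 811 to 881 in mutant libraries. *Col1a1*, which encodes a collagen of fibroblasts, had counts of 18, 0 and 2 in wild type 1, 2 and 3 and of 0, 1 and 0 in mutant 1, 2 and 3, and *Pdgfra* had 23, 6 and 21 against 0, 0 and 1. Other members did not fall, with *Col1a2* at 5, 0 and 5 against 9, 10 and 0 and *Osr1* at 0, 15 and 4 against 16, 3 and 15. Of the 7 tested genes of the list, 6 were fitted lower and 1 higher, at log2 fold changes from -2.21 to 1.01. Among them 1 was called lower (14.3%, beside 5.83% of all genes). The smooth muscle list summed to 212 to 252 normalized counts in wild type and to 202, 446 and 1162 in mutant 1, 2 and 3, and the mesothelium list to 776 to 976 in wild type, against 572 to 787 in mutant libraries. The endothelium list stayed at or under 21.7 and the blood list at or under 35.4, with 5 of 8 and 6 of 12 genes at 0 throughout. Liver markers summed to 4351 to 5246 in wild type, against 3269 to 3680 in mutant libraries, neural crest markers to 262 to 365 and 261 to 424, and pancreas markers to 207 to 223 and 238 to 267. Of the tested genes, 2 of 3 mesothelium and 2 of 5 liver markers were called lower (66.7% and 40%, beside 5.83% of all genes). None of either list was called higher, and these sums do not stand for their members either. The part of these sums in the results below was not tested.

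Of the 45 genes, 38 had enough counts to be tested, and 5 of these were called changed. A gene was called at an adjusted p under 0.01 (edgeR's quasi-likelihood test, Benjamini-Hochberg over 12501 tested genes), if its log2 fold change was 0.5 or more in size and its normalized counts averaged 50 or more. *Peg3*, *Nnat* and *Ndn* fell in the mutant, and *Dlk1* and *Meg3* rose. To show what the sequence at their start sites looks like, the promoter of each called gene is given here as the 300 bases around the start, most of them upstream, from RefSeq, build GRCm38.p6, 5′ to 3′ on the strand of the gene. *Meg3* has 2 such windows, of which the more upstream is shown. Capitals mark TGCCGC on either strand, the letters bound by ZFP57, the zinc finger protein that keeps imprints methylated, when their CpG is methylated.
*Peg3*, chr7:6730370-6730669, minus strand: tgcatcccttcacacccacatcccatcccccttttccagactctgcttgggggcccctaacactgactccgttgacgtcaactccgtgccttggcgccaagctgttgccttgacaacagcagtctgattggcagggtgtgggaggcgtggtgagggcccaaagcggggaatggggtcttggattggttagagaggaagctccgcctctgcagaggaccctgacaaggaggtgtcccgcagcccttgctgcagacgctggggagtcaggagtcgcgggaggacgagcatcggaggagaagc
*Nnat*, chr2:157559828-157560127, plus strand: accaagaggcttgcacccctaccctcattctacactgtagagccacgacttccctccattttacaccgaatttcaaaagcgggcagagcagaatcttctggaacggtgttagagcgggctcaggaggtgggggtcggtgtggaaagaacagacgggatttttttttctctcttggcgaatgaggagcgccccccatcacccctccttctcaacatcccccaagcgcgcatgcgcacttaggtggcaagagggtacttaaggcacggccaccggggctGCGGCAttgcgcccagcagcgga
*Ndn*, chr7:62348027-62348326, plus strand: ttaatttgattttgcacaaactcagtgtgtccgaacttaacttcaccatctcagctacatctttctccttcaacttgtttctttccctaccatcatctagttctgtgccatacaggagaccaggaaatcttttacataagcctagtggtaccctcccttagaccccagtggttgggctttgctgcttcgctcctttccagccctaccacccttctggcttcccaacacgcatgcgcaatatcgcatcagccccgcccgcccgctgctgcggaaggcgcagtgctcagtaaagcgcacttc
*Dlk1*, chr12:109452573-109452872, plus strand: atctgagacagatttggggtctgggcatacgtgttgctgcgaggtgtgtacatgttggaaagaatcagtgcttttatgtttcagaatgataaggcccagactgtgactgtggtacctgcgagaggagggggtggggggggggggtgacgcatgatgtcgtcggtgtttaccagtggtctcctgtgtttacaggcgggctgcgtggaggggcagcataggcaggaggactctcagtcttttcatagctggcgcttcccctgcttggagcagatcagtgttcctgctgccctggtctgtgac
*Meg3*, chr12:109540746-109541045, plus strand: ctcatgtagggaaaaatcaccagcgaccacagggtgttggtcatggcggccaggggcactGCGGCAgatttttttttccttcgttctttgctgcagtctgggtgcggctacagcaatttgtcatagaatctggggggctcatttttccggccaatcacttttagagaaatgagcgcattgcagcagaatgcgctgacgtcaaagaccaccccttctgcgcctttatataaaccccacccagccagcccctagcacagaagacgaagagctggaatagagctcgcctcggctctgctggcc

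The *Nnat* and *Meg3* promoters each held 1 match to TGCCGC and the other three none. The 5 windows held 13 (*Peg3*), 17 (*Nnat*), 11 (*Ndn*), 9 (*Dlk1*) and 13 (*Meg3*) CpG dinucleotides. RefSeq gave 53 promoters for 36 of the 45 genes, several of them for 1 gene. TGCCGC was in 14 of these 53 (26.4%) and in 11.6% of all 32851 promoters of the same length. The member promoters also held more CpG, at a median of 15 against 7, and the motif contains a CpG, so both shares describe related letters. CTTTGAT, the core letters of TCF/LEF sites, was in 0 of 53 member promoters on either strand and in 3.73% of all promoters. These motifs were chosen after the expression values were known, and a match or its absence in these windows says nothing about binding.

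In wild type epithelium, the imprinted genes together took 0.578% to 0.624% of all counts, and *Gnas* and *H19* held 58.0% to 60.6% of that. Levels were compared between genes as RPKM, reads scaled to exon length and library depth, for the 21232 genes with an annotated length. Among the maternally expressed genes, *H19*, a long non-coding RNA of fetal tissues, was highest by all exon bases, at 521 ± 33.5 RPKM (SD, n = 3), rank 70 of all genes. *Gnas*, which encodes the stimulatory G protein alpha subunit, had 196 ± 6.65 RPKM, and *Cdkn1c*, which encodes the cell cycle inhibitor p57, had 183 ± 15.1. These neighbours in the order differed by less than the SD of *Cdkn1c*, and the order turns with the length used, since by the longest transcript *Gnas* had 556 RPKM and *H19* 541. *Nap1l4*, which encodes a nucleosome assembly protein, followed at 104 ± 9.78 RPKM and *Tssc4*, from the same chromosome 7 cluster, at 32.1 ± 0.912.

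Among the paternally expressed genes, *Igf2*, the fetal insulin-like growth factor, was highest in wild type at 99.0 ± 12.3 RPKM (SD, n = 3). *Nnat*, which encodes the membrane proteolipid neuronatin, had 34.5 ± 0.979 RPKM and *Ddc*, which encodes the enzyme that makes dopamine and serotonin from their precursors, 30.2 ± 0.440. By its longest transcript *Ddc* had 67.5 RPKM and *Nnat* 43.5, so the order of these neighbours turns with the length used. *Dlk1*, which encodes a transmembrane protein related to Notch ligands, had 22.7 ± 2.36 RPKM and *Ndn*, which encodes the MAGE family protein necdin, 16.9 ± 0.703. *Peg3*, which encodes a large zinc finger protein, was lower at 4.18 ± 0.923 RPKM, and *Meg3* at 0.344 ± 0.0755 was among the lowest of the maternally expressed genes. The same 10 genes formed the top 5 of each class by the longest transcript.

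**Figure D1:**
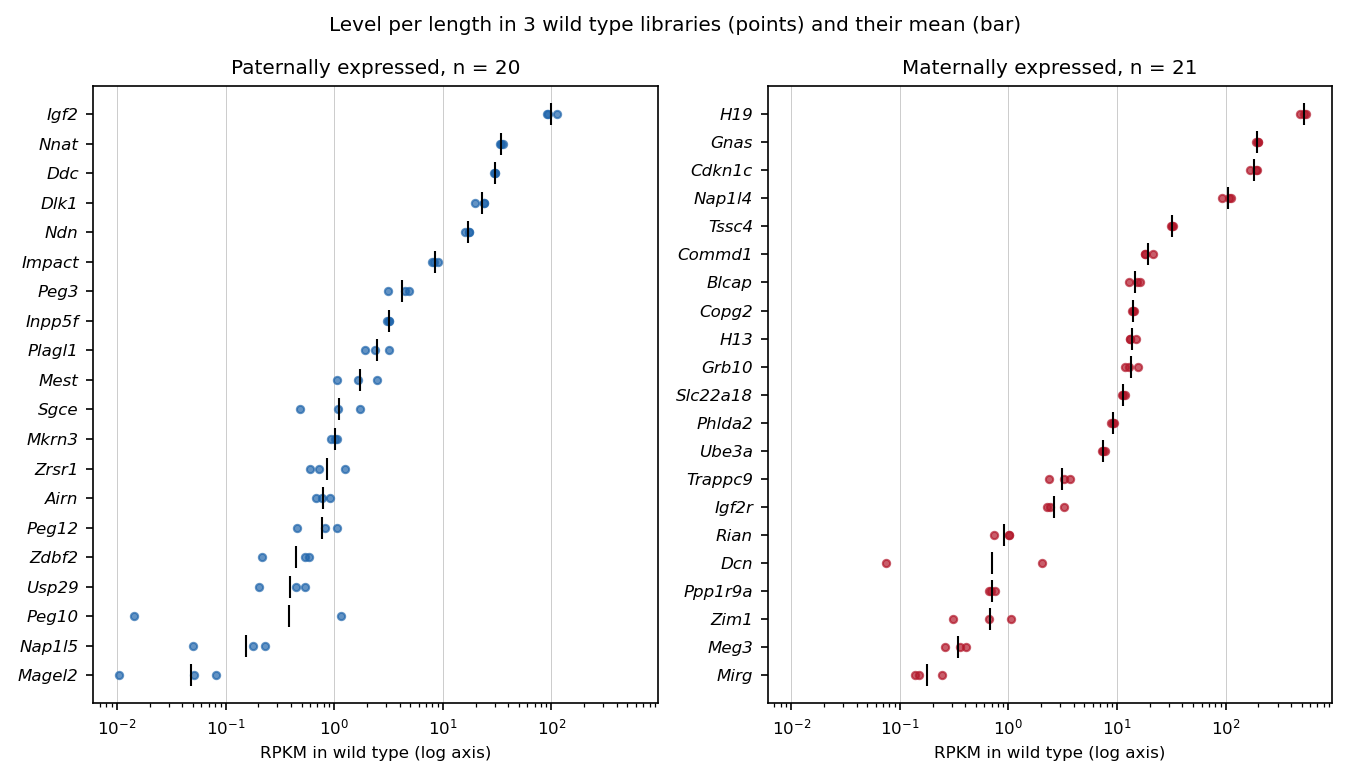
RPKM of the imprinted genes in the 3 wild type libraries on a log axis, paternally expressed genes on the left (n = 20 genes) and maternally expressed genes on the right (n = 21); points are libraries and bars their mean. *H19* at 521 RPKM and *Igf2* at 99.0 RPKM lead their classes by all exon bases, *Peg10* and *Dcn* are spread widely, and libraries or genes at 0 and genes without a length are not drawn.

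Across the 38 tested genes, 2 were called higher in the mutant (5.26%), where 2.78% of all tested genes were, and 3 were called lower (7.89%), where 5.83% of all were. With library size as the only scaling, there was 1 higher call and there were 6 lower calls. With an uncentred correction for gene length the split stayed at 2 and 3, while 64.3% of the calls over all genes were then higher, against 32.3%. At an adjusted p under 0.05 (edgeR's quasi-likelihood test, Benjamini-Hochberg), 3 were higher (7.89%) against 13.6% of all genes, and 10 were lower (26.3%) against 15.1% of all. No overlap between groups was seen for 17 of the 38 (44.7%), against 43% of all genes, with 13 of these lower (22.2% of all genes were) and 4 higher (20.8%). The median log2 fold change of the 38 was -0.13, beside -0.04 over all tested genes.

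By class, the 18 tested paternally expressed genes had 1 called higher (5.56%) and 3 called lower (16.7%), and their median log2 fold change was -0.17, and the 20 tested maternally expressed genes had 1 called higher (5%) and 0 lower, with a median of -0.07, beside 2.78% and 5.83% of all genes. At an unadjusted p under 0.05 in edgeR's quasi-likelihood test, 7 paternally (38.9%) and 7 maternally expressed genes (35%) were lower, beside 21.6% of all genes. At the same threshold 2 of each class were higher (11.1% and 10%), beside 18.6% of all genes. Of the lower genes, DESeq2 called *Peg3*, *Nnat* and *Ndn* in the paternal class and *Trappc9* in the maternal class. Groups did not overlap for 6 of the 18 (33.3%) and 11 of the 20 (55%), beside 43% of all genes. The difference between the classes was not tested. The share of all raw counts taken by the imprinted genes was 0.530% to 0.534% in the mutant, below every wild type library. The raw share of *Gnas* was also lower, at 0.223% to 0.234% in wild type and 0.209% to 0.211% in the mutant. Its log2 fold change after normalization was -0.01. The paternal class took 0.102% to 0.122% of raw counts in wild type and 0.0875% to 0.0905% in the mutant. The maternal class took 0.476% to 0.503% and 0.443% to 0.446%. Scaling by library size only moved the median log2 fold change of all genes by -0.11, and its part in the lower shares was not tested.

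**Figure D2:**
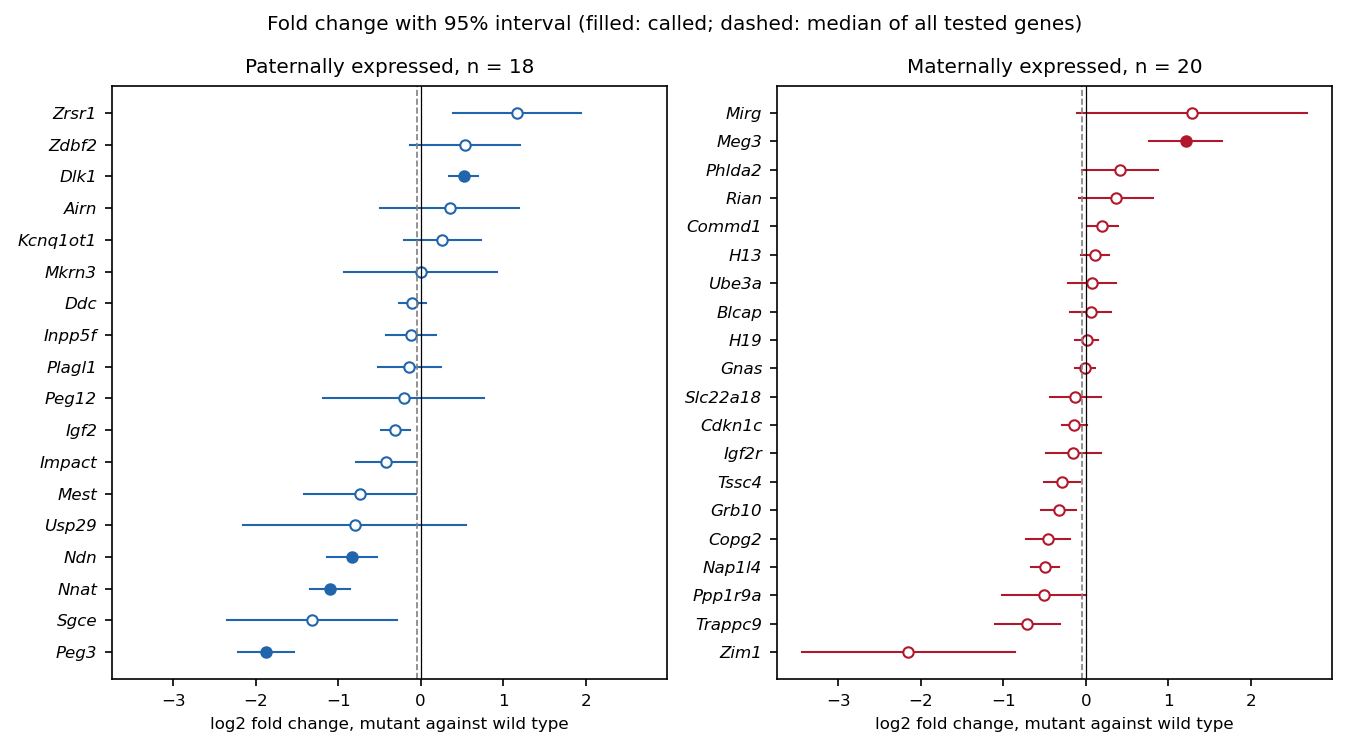
Log2 fold change, mutant against wild type, with its 95% interval for the 18 paternally (left) and 20 maternally (right) expressed genes tested; filled points were called, and the dashed line is the median of all tested genes, -0.04. *Peg3*, *Nnat* and *Ndn* lie lowest among the called genes, while *Dlk1* and *Meg3* lie to the right of 0.

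The largest called fall was that of *Peg3* (ENSMUSG00000002265, mm9 chromosome 7, 6656603 to 6683132). Its normalized counts were 1276, 1168 and 817 in wild type 1, 2 and 3, against 308, 257 and 324 in mutant 1, 2 and 3. Every mutant library was far below every wild type library. The means were 1087 ± 240 and 296 ± 35.2 (SD, n = 3 each), a 3.67-fold lower level with a log2 fold change of -1.88 (SE 0.16, adjusted p = 8.04e-07, edgeR). The maternally expressed neighbour *Zim1*, a zinc finger gene of the same cluster, had raw counts of 80, 51 and 23 in wild type and 5, 10 and 15 in mutant libraries. These groups did not overlap either, but the counts were few (log2 fold change -2.15, SE 0.61, edgeR adjusted p = 0.0155) and *Zim1* was not called. *Usp29*, which encodes a ubiquitin protease and starts next to *Peg3*, had 20.1 ± 8.79 and 11.5 ± 3.49 normalized counts with overlapping libraries (log2 fold change -0.80, adjusted p = 0.373).

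*Nnat* (ENSMUSG00000067786, mm9 chromosome 2, 157385814 to 157388258) lies within the span of *Blcap*, on the opposite strand. It had normalized counts of 1226, 1268 and 1199 in wild type 1, 2 and 3 and of 534, 532 and 656 in mutant 1, 2 and 3. The wild type libraries were tightly grouped and all mutant libraries lower, with means of 1231 ± 35.0 and 574 ± 70.8 (SD, n = 3 each). The fall was 2.14-fold (log2 fold change -1.10, SE 0.12, edgeR adjusted p = 5.81e-06). *Blcap*, a maternally expressed gene in brain, had 877 ± 107 and 914 ± 56.2 normalized counts with overlapping libraries (log2 fold change 0.06, 95% interval -0.19 to 0.31). Of the exon bases of *Nnat*, 4.76% overlap an antisense transcript.

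*Ndn* (ENSMUSG00000033585, mm9 chromosome 7, 69493163 to 69494814) belongs to the Prader-Willi and Angelman cluster. Its normalized counts were 559, 557 and 519 in wild type 1, 2 and 3, against 332, 280 and 305 in mutant 1, 2 and 3. The groups were clear of each other, with means of 545 ± 22.7 and 306 ± 26.2 (SD, n = 3 each), a log2 fold change of -0.83 (SE 0.14) and an edgeR adjusted p of 0.000603. The other genes of the cluster showed no call. *Ube3a*, which encodes a ubiquitin ligase, had 742 ± 29.5 and 785 ± 149 normalized counts, *Mkrn3* 50.4 ± 3.52 and 50.4 ± 26.4, and *Peg12*, a relative of the GSK3-binding *Frat* genes, 40.2 ± 15.7 and 34.8 ± 3.18. *Magel2*, a MAGE family gene like *Ndn*, had raw counts of 8, 5 and 1 in wild type and 0, 0 and 1 in mutant libraries and was not tested. *Snrpn* and *Snurf* had a count of 0 in every library. The *Snurf* span lies inside *Snrpn* in RefSeq, and how reads shared by several genes were handled is not given in the sources used here, so a count of 0 does not show that these transcripts were absent.

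The mesenchyme marker sum was lower in the mutant libraries in the same direction as *Peg3*, *Nnat* and *Ndn*, though its members differed in direction. That sum was 2313, 2513 and 2115 in wild type 1, 2 and 3, against 1488, 1609 and 1634 in mutant 1, 2 and 3, and its part in these results was not tested.

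Both called rises came from the *Dlk1*-*Meg3* cluster on chromosome 12. *Dlk1* (ENSMUSG00000040856, mm9 chromosome 12, 110691033 to 110701546) had normalized counts of 2659, 2208 and 2658 in wild type 1, 2 and 3 and of 3426, 3774 and 3610 in mutant 1, 2 and 3. All mutant libraries were above all wild type libraries, with means of 2508 ± 261 and 3603 ± 174 (SD, n = 3 each). The log2 fold change was 0.52 (SE 0.09, edgeR adjusted p = 0.000418), just over the minimum of 0.5. It was 0.42 with library size as the only scaling, 0.44 without wild type 2 and 0.49 without mutant 2, and under each of these *Dlk1* was not called.

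*Meg3* (ENSMUSG00000021268, mm9 chromosome 12, 110779211 to 110809936) is a maternally expressed long non-coding RNA. It had normalized counts of 128, 145 and 92.2 in wild type 1, 2 and 3 and of 285, 289 and 271 in mutant 1, 2 and 3. The mutant libraries were close to one another and well above wild type, with means of 121 ± 26.7 and 281 ± 9.24 (SD, n = 3 each). The rise was 2.32-fold (log2 fold change 1.21, SE 0.21, edgeR adjusted p = 0.000617). An opposite-strand transcript overlaps 6.79% of its exon bases. The smooth muscle marker sum was 202, 446 and 1162 in mutant 1, 2 and 3 beside these values of *Meg3* and *Dlk1*, and its part in them was not tested.

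The other non-coding RNAs of the cluster were fitted higher but not called. *Rian*, a host of small nucleolar RNAs, had normalized counts of 161, 118 and 161 in wild type and 180, 201 and 186 in mutant libraries. These groups did not overlap, at a log2 fold change of 0.37 (SE 0.21, edgeR adjusted p = 0.211). *Mirg*, a host of microRNAs, had raw counts of 16, 10 and 9 in wild type and 9, 35 and 31 in mutant libraries, with mutant 1 among the wild type values (log2 fold change 1.29, adjusted p = 0.155). *Rtl1*, a retrotransposon-derived gene that is paternally expressed, had at most 2 counts in any library and was not tested.

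The exons of *H19* hold Mir675 and those of *Meg3* hold Mir770 and Mir1906-1, and the mature sequences of the first and second are given because the counts of the host cover them. They were taken from RefSeq, build GRCm38.p6, with the seed (bases 2 to 8) in capitals.
*H19*, mmu-miR-675-5p: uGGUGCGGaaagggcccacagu
*H19*, mmu-miR-675-3p: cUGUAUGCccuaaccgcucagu
*Meg3*, mmu-miR-770-5p: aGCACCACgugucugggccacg
*Meg3*, mmu-miR-770-3p: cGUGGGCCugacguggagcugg

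The 4 seeds differ from one another. Libraries made from poly(A) RNA and cut cDNA do not measure mature microRNAs, so the host values above are not levels of these sequences.

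**Figure D3:**
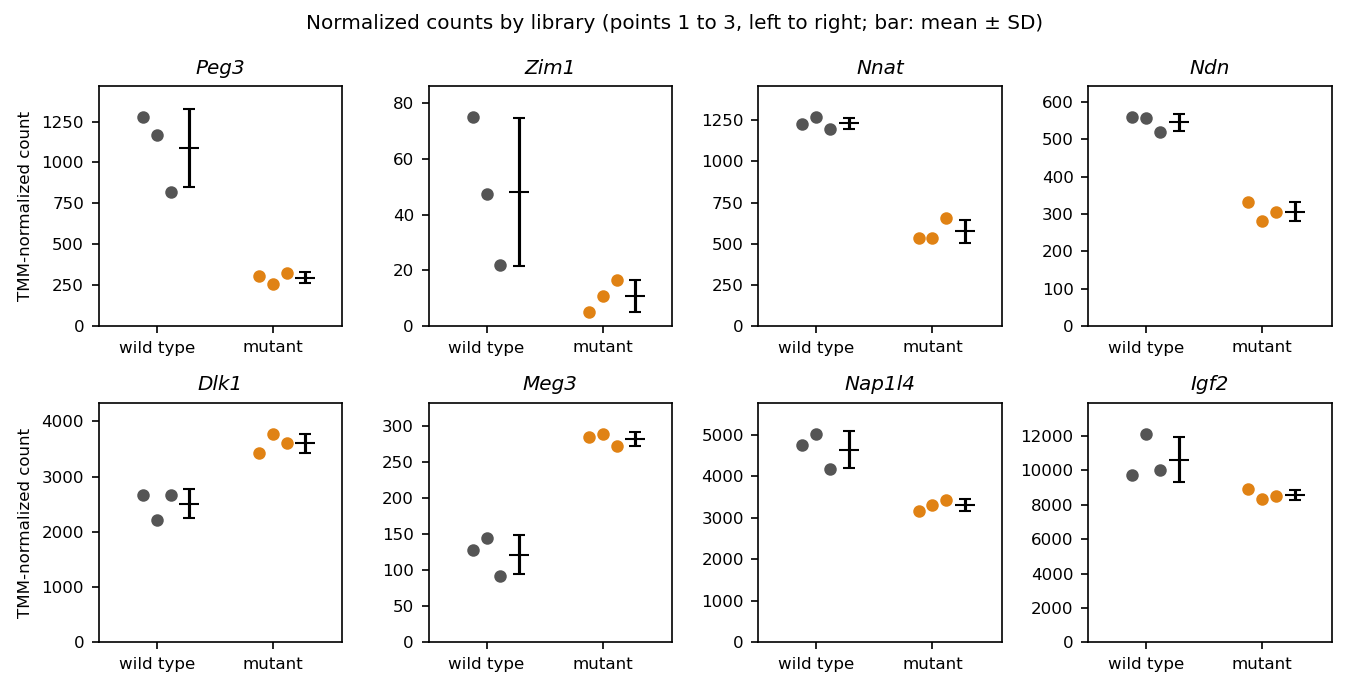
TMM-normalized counts of 8 imprinted genes in each library (points 1 to 3 from left to right, wild type grey and mutant orange) with the mean and SD as a cross bar; each vertical axis starts at 0. The 8 genes were picked with their values known, all without overlap between groups, with *Dlk1* and *Meg3* higher and the other genes lower in the mutant.

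In the growth factor cluster, *H19* (ENSMUSG00000000031, mm9 chromosome 7, 149761434 to 149764048) had normalized counts of 22516, 25602 and 24305 in wild type 1, 2 and 3 and of 24292, 24906 and 23784 in mutant 1, 2 and 3. The libraries overlapped, and the log2 fold change was 0.01 with a 95% interval of -0.13 to 0.15, with a negative value under some scalings. *Igf2* (ENSMUSG00000048583, mm9 chromosome 7, 149836673 to 149852721) had 9713, 12130 and 10012 in wild type and 8914, 8328 and 8525 in mutant libraries. All mutant libraries were lower than all wild type libraries, though wild type 1 was near mutant 1. The log2 fold change of *Igf2* was -0.31 (SE 0.08, edgeR adjusted p = 0.0111), short of the call, and -0.09 with an uncentred correction for gene length. *Igf2r*, which encodes the receptor that clears IGF2, had 486 ± 95.8 and 439 ± 34.5 normalized counts, and *Airn*, the non-coding RNA antisense to it, 55.5 ± 8.60 and 70.9 ± 34.6. Neither was called, with log2 fold changes of -0.15 and 0.35 and overlapping libraries.

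In the neighbouring *Kcnq1* cluster 6 of 6 genes were tested and 0 were called by edgeR's quasi-likelihood test or by DESeq2. Of all genes, edgeR called 2.78% higher and 5.83% lower, so 0 calls among 6 genes says little. An unadjusted p under 0.05 in edgeR was reached by 2, both of them lower (33.3%, beside 21.6% of all genes). Groups did not overlap for 4 of the 6 (66.7%, beside 43% of all genes). *Nap1l4* (mm9 chromosome 7, 150699484 to 150734997) had normalized counts of 4742, 5022 and 4166 in wild type 1, 2 and 3 and of 3168, 3315 and 3439 in mutant 1, 2 and 3. All mutant libraries lay below wild type, and its log2 fold change of -0.49 (SE 0.08, adjusted p = 0.00042) missed only the minimum of 0.5. *Tssc4* had 1135, 1072 and 1100 in wild type and 965, 890 and 857 in mutant libraries. These did not overlap either (log2 fold change -0.29, SE 0.10, adjusted p = 0.0463), and 12.5% of the exon bases of *Tssc4* overlap *Trpm5*, a cation channel gene on the opposite strand.

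*Cdkn1c* (ENSMUSG00000037664, mm9 chromosome 7, 150644255 to 150646955) had normalized counts of 7305, 7178 and 6263 in wild type and 6420, 6086 and 6353 in mutant libraries. Wild type 3 lay among the mutant values, and the log2 fold change was -0.14 with a 95% interval of -0.29 to 0.02. *Phlda2*, which restrains growth of the placenta, had 131, 139 and 136 in wild type and 220, 150 and 170 in mutant libraries. Every mutant library lay above wild type, yet the log2 fold change of 0.41 had an SE of 0.22 (edgeR adjusted p = 0.173). *Slc22a18*, a transporter gene, had 382 ± 11.9 and 350 ± 8.34 normalized counts, and *Kcnq1ot1*, the antisense RNA that silences the cluster, 325 ± 115 and 390 ± 76.4, with log2 fold changes of -0.13, without overlap, and 0.26, with overlap.

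*Grb10*, which encodes an adaptor that restrains insulin and IGF receptors, had normalized counts of 2326, 2772 and 2111 in wild type 1, 2 and 3 and of 1832, 2073 and 1835 in mutant 1, 2 and 3. No mutant library reached wild type, with wild type 3 close to mutant 2 (log2 fold change -0.33, SE 0.10, edgeR adjusted p = 0.0231), and with the uncentred length correction the log2 fold change was -0.12. Its neighbour *Ddc* had 2592, 2588 and 2525 in wild type and 2445, 2440 and 2304 in mutant libraries. These did not overlap, but the log2 fold change was -0.10 with a 95% interval of -0.26 to 0.06, and turned to 0.12 with the uncentred length correction. *Gnas* had 43648, 41147 and 43676 in wild type and 42656, 42941 and 42205 in mutant libraries. The libraries overlapped and the 95% interval of its log2 fold change, -0.01, ran from -0.13 to 0.11, with a positive value under some scalings.

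On chromosome 6, *Copg2*, which encodes a subunit of the COPI coat, had normalized counts of 1255, 1214 and 1193 in wild type 1, 2 and 3 and of 999, 698 and 973 in mutant 1, 2 and 3. Mutant libraries were all lower, mutant 2 lowest (log2 fold change -0.46, SE 0.13, edgeR adjusted p = 0.0142), and the log2 fold change was -0.24 with the uncentred length correction. *Mest*, which encodes an endoplasmic reticulum protein of the hydrolase fold, had 127, 189 and 80.8 in wild type and 71.4, 63.9 and 102 in mutant libraries. Mutant 3 lay within the wild type range (log2 fold change -0.74, adjusted p = 0.0939). The 2 genes share 904 exon bases on opposite strands, 20.2% of *Copg2* and 23% of *Mest*, and whether reads were counted by strand is not given in the sources used here.

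The *Peg10*-*Sgce* cluster had 2 of 3 genes tested and neither was called, beside 2.78% of all genes called higher and 5.83% called lower. *Ppp1r9a*, which encodes the actin-binding protein neurabin, had normalized counts of 158, 150 and 169 in wild type and 88.0, 106 and 142 in mutant libraries. Mutant libraries were all lower (log2 fold change -0.51, SE 0.24, edgeR adjusted p = 0.124). *Sgce*, which encodes epsilon-sarcoglycan, had 105, 28.9 and 64.6 in wild type and 26.9, 19.2 and 33.2 in mutant libraries. Wild type 2 lay inside the mutant range (log2 fold change -1.32, SE 0.49, adjusted p = 0.0522).

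*Trappc9*, which encodes a subunit of a vesicle tethering complex, had normalized counts of 455, 405 and 296 in wild type 1, 2 and 3 and of 246, 207 and 254 in mutant 1, 2 and 3. The groups did not overlap, and its adjusted p of 0.0104 (edgeR, log2 fold change -0.71, SE 0.19) lay just over the threshold. *Zrsr1*, a copy of a splicing factor gene inside *Commd1*, had 80.6, 46.6 and 38.0 in wild type and 167, 135 and 69.7 in mutant libraries. Mutant 3 lay below wild type 1 (log2 fold change 1.17, SE 0.37, adjusted p = 0.0262). *Commd1*, which acts in copper handling, had 3130 ± 305 and 3605 ± 278 normalized counts with overlapping libraries (log2 fold change 0.20, adjusted p = 0.0878), and 203 exon bases are shared by the pair on opposite strands. *Commd1* also shares 2449 exon bases, 29.2% of its own, with *B3gnt2* on the same strand.

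Of the remaining tested genes, *Impact*, which encodes a regulator of translation under stress, had 568 ± 35.1 and 425 ± 118 normalized counts (log2 fold change -0.42, edgeR adjusted p = 0.086). *Plagl1*, a zinc finger transcription factor gene, had 355 ± 89.9 and 323 ± 10.1, *Inpp5f*, a phosphoinositide phosphatase gene, 515 ± 10.3 and 473 ± 68.0, and *H13*, the signal peptide peptidase gene, 2418 ± 174 and 2609 ± 63.1. *Zdbf2* had 110 ± 49.8 and 160 ± 31.6 normalized counts. Libraries overlapped for all of these, and none was called. *Nap1l5*, not tested, had at most 9 counts in any library. *Peg10* and *Dcn* were also below the filter, and most of their counts lay in wild type 1.

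Pairs of neighbours with opposite parental classes were set against each other within each library, which removes any common scaling. The 6 pairs were chosen after the values were known. An exact two-sided permutation test of 3 against 3 libraries cannot go below p = 0.1. The ratio of *Igf2* to *H19* counts was 0.431, 0.474 and 0.412 in wild type and 0.367, 0.334 and 0.358 in mutant libraries. Each mutant ratio lay under each wild type ratio (log2 difference -0.31, exact permutation p = 0.1, 0.2 adjusted over the 6 pairs). The ratio of *Dlk1* to *Meg3* was 20.85, 15.28 and 28.84 in wild type and 12.03, 13.08 and 13.32 in mutant libraries. Although both genes rose, the ratio was lower in every mutant library (log2 difference -0.71, exact permutation p = 0.1, adjusted 0.2). The ratio of *Nnat* to *Blcap* was 1.36, 1.67 and 1.24 in wild type and 0.625, 0.577 and 0.679 in mutant libraries, again without overlap (log2 difference -1.17, exact permutation p = 0.1, adjusted 0.2). For *Peg3* over *Zim1*, *Mest* over *Copg2* and *Zrsr1* over *Commd1* the groups overlapped, with log2 differences of 0.28, -0.21 and 0.95.

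**Figure D4:**
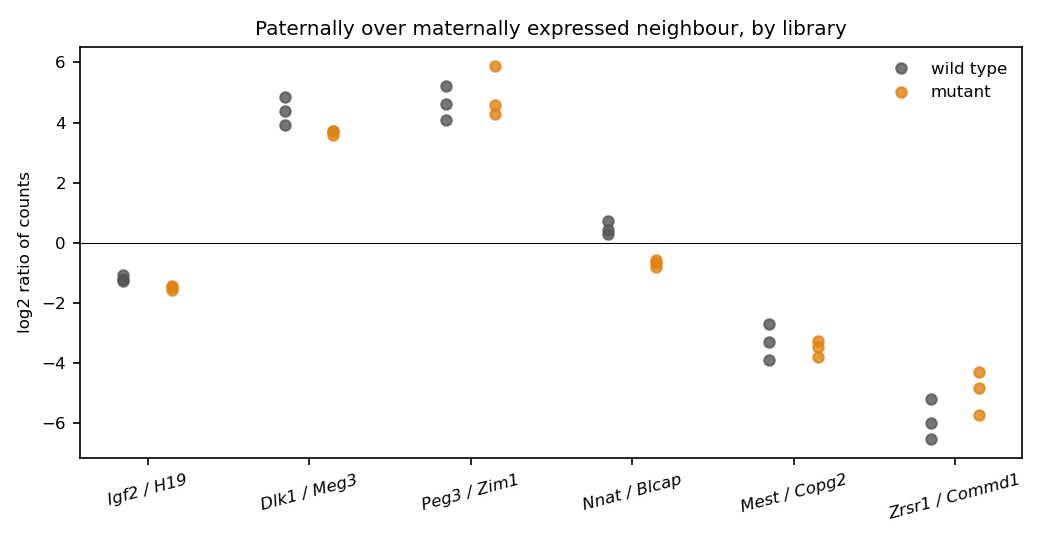
Log2 ratio of the counts of a paternally expressed gene to those of its maternally expressed neighbour, for 6 pairs; each point is 1 of 3 wild type (grey) or 3 mutant (orange) libraries. The ratios of *Igf2* to *H19*, *Dlk1* to *Meg3* and *Nnat* to *Blcap* are lower in every mutant library, and the other pairs overlap.

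A list of 45 further genes reported as imprinted in some tissue had 43 in the files and 26 tested, with 2 called higher and 2 called lower (7.69% each, beside 2.78% and 5.83% of all genes) and a median log2 fold change of -0.13, beside -0.04 over all genes. *Gatm*, which encodes an enzyme of creatine synthesis, rose from 291 ± 19.8 to 494 ± 95.8 normalized counts (SD, n = 3 each, log2 fold change 0.76, edgeR adjusted p = 0.00333). *Pon2*, a paraoxonase gene near *Peg10*, rose from 499 ± 42.8 to 738 ± 87.7 (log2 fold change 0.56, adjusted p = 0.00525). *Bcl2l1*, which encodes the survival protein BCL-XL, fell from 724 ± 77.0 to 445 ± 34.0 (log2 fold change -0.70, adjusted p = 0.00122). *Ddr1*, a collagen receptor gene, fell from 292 ± 97.8 to 125 ± 19.4 (log2 fold change -1.22, adjusted p = 0.00227). The 3 genes of the list with the highest counts, *Cd81*, *Wars* and *Dhcr7*, were not called, with log2 fold changes of 0.09, -0.21 and 0.04. Without wild type 1 or without wild type 2 the list had 1 call.

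A list of 23 genes that act on imprints, called the imprint upkeep list here, had 21 tested. It held DNA methyltransferases, TET enzymes, Polycomb proteins and ZFP57 with its partners. Not all of them keep imprints, since TET enzymes act in removing DNA methylation. The list had 0 calls by edgeR (beside 2.78% higher and 5.83% lower of all genes) and 0 by DESeq2. At an unadjusted p under 0.05 in edgeR 3 were higher and 9 lower (14.3% and 42.9%, beside 18.6% and 21.6% of all genes). Without wild type 3 it had 3 calls. *Trim28*, which encodes the corepressor recruited by ZFP57, had 5533 ± 434 and 4952 ± 153 normalized counts (SD, n = 3 each, log2 fold change -0.16). *Hells*, a chromatin remodeller gene, had 4932 ± 330 and 5647 ± 170, and *Eed*, a Polycomb gene, 3534 ± 245 and 4487 ± 200, with log2 fold changes of 0.20 and 0.34. Neither gene had overlapping groups (edgeR adjusted p = 0.0527 and 0.00344), and *Eed* missed only the minimum fold change. No overlap was seen for 7 of the 21 (33.3%, beside 43% of all genes), 4 of them lower and 3 higher. *Zfp57* itself, named after its values were seen, had normalized counts of 124, 138 and 105 in wild type and 62.1, 69.2 and 63.1 in mutant libraries. The groups did not overlap (log2 fold change -0.92, SE 0.27, edgeR adjusted p = 0.0191).

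The insulin-like growth factor axis, to which *Igf2*, *Igf2r*, *H19* and *Grb10* belong, was covered by 22 further genes, of which 17 were tested, with 1 called higher and 1 called lower (5.88% each, beside 2.78% and 5.83% of all genes). *Igfbp2*, which encodes a secreted binding protein of IGF2, had normalized counts of 2599, 2435 and 2779 in wild type 1, 2 and 3 and of 926, 1177 and 1169 in mutant 1, 2 and 3. It fell 2.39-fold without overlap (log2 fold change -1.26, SE 0.10, edgeR adjusted p = 4.19e-07). *Ide*, which encodes the protease that degrades insulin, had 4268, 3778 and 4342 in wild type and 7260, 6722 and 6863 in mutant libraries. It rose 1.68-fold (log2 fold change 0.75, SE 0.07, adjusted p = 3.17e-06). Of the other genes, *Igf2bp2* and *Igf2bp3*, which encode proteins that bind *Igf2* mRNA, and *Igfbp4*, had log2 fold changes of -0.25, -0.18 and -0.36 and were not called. Their edgeR adjusted p values were 0.0212, 0.113 and 0.00703, and only *Igf2bp3* had overlapping groups. *Igfbp4* missed only the minimum fold change. No overlap was seen for 9 of the 17 tested genes (52.9%, beside 43% of all genes), 7 of them lower and 2 higher. *Igfbp1*, another binding protein gene, had raw counts of 4, 14 and 15 in wild type and 38, 76 and 69 in mutant libraries (log2 fold change 2.65, edgeR adjusted p = 0.00264), and missed the call by its mean count. *Irs1*, which encodes a substrate of the receptors, had 13, 22 and 32 against 0, 2 and 0 (log2 fold change -4.66, adjusted p = 0.00363) and missed it in the same way, with 30.9% of its exon bases overlapping an opposite-strand gene. Without the minimum count the list had 4 calls. The receptor genes *Igf1r* and *Insr* had 116 ± 60.2 and 201 ± 52.7 normalized counts in wild type and 125 ± 24.8 and 160 ± 32.1 in the mutant.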

How the data were processed

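RNA was sequenced from 6 libraries, 3 mutant and 3 wild type, each of 500 sorted EpCAM-positive cells. The authors synthesised cDNA from poly(A) RNA by SMARTer v4 with 15 cycles of PCR, aligned reads to mm9 with STAR 2.5.2b and used featureCounts 1.5.1 to count those that mapped uniquely to genes of a UCSC model. They deposited raw read counts, not normalized, for each library. DESeq2 1.18.1 was their own test. The strand setting, and how reads falling in several genes were handled, are not given in the sources used here. PCR copies were not separated by molecular identifiers, so depth covers counting error only. The labels name biological replicates but not the embryos or litters, so p-values measure the spread between these libraries.

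The test of genotype was run in edgeR 4.0.16 (R 4.3.3, with TMM normalization, filterByExpr filter, quasi-likelihood fit, Benjamini-Hochberg adjustment over 12501 genes). The biological coefficient of variation was 0.144. Calls needed an adjusted p under 0.01, a log2 fold change of 0.5 or more in size and 50 or more normalized counts on average, the last in place of the RPKM minimum of the study. RPKM and positions used GENCODE vM1 exons on mm9, which is not the gene model of the counts. The self-test on simulated data changed 200 of 12501 genes for the comparison of mutant against wild type and recovered 165, with 2 unchanged genes called. No pair of libraries agreed within sampling noise.

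The members and gene lists were chosen with earlier results of these data known. Named with every library's value were members with an adjusted p under 0.05 or an unadjusted p under 0.01, members without overlap and a log2 fold change of at least 0.5 in size, the 5 members of highest RPKM in each class, and, of other lists, called genes and the 3 of highest count. Others named were chosen after their values were seen. Tried as alternatives were RLE normalization, DESeq2 1.42.0, scaling by library size only, other filters and thresholds, a length correction by loess (span 0.5, centred on its median), a replicate block and leaving out each library. The same length correction without centring and RPKM by the longest transcript were chosen after seeing the data. The 16 named genes with a coding transcript were searched for near-identical coding transcripts with BLAST+ 2.17.0, and the matches found were to the overlapping neighbours. The non-coding *H19* and *Meg3* were not searched.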

Additional observations from a re-analysis of the deposited data

How the results depend on the processing

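*Peg3*, *Nnat*, *Ndn* and *Meg3* were called under all 15 alternatives tried for single genes. Among these, the looser adjusted p under 0.05 on the main fit could not lose a call. The RPKM minimum was not among the 15. With a mean RPKM of at least 50 in place of the count minimum, 0 imprinted genes were called higher, 0 lower, 0 in the paternal class and 0 in the maternal class, 0 of the other imprinted genes and 1 of the IGF axis. With library size as the only scaling the calls were 1 higher and 6 lower, 4 in the maternal class and 2 of the other imprinted genes, and that scaling moved the median of all genes by -0.11 and the share of higher calls from 32.3% to 17.3%. With a filter at a mean of 50 counts, 5 were called lower and 3 in the maternal class. The maternal class had 2 calls by DESeq2, without the filter on low counts, with the length correction, at an adjusted p under 0.05 and without a minimum fold change. The imprint upkeep list had 1 call without the filter, 2 at an adjusted p under 0.05 1 without a minimum fold change and 1 with the uncentred length correction, which moved the median of all genes by 0.13, and the IGF axis 4 without a minimum count. Leaving out 1 library gave 1 to 3 higher calls, 3 to 5 lower calls, 1 to 3 maternal calls, 1 to 5 other imprinted calls and 0 to 3 upkeep calls. Without wild type 2 or without mutant 2 there was 1 higher call, since *Dlk1* was lost, and without wild type 3 there were 5 lower calls and 3 maternal ones, *Trappc9* and *Nap1l4* being added. The log2 fold change of *H19* was -0.09 with library size only, -0.003 with the filter at 50, -0.08 with the length correction, and -0.04 to 0.06 with 1 library left out. That of *Gnas* was 0.01 by DESeq2, 0.01 with RLE, 0.18 with the uncentred length correction, which gave 0.12 for *Ddc*, and -0.04 to 0.02 with 1 library left out. The replicate numbers were not taken to pair the libraries, since same-numbered libraries had correlations of 0.01, -0.045 and -0.018, and with the replicate block 2 genes were called higher and 3 lower, and 1030 of all genes against 1077. The cause of these changes was not tested. *Zim1* and *Mirg* had at most 80 and 35 counts in any library, so their values rest on few reads.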

Other observations

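*Peg10*, a retrotransposon-derived gene that is abundant in placenta, had raw counts of 159, 2 and 0 in wild type 1, 2 and 3 and of 2, 2 and 0 in mutant 1, 2 and 3. *Dcn*, which encodes the matrix proteoglycan decorin, had 83, 0 and 3 in wild type and 5, 9 and 2 in mutant libraries. Wild type 1 alone held most counts of both genes, and it also had the highest normalized count of *Sgce*, 105 against 28.9 and 64.6 in wild type 2 and 3. Among the other imprinted genes, *Qpct*, which encodes a glutaminyl cyclase, had raw counts of 96, 88 and 68 in wild type and 4, 5 and 10 in mutant libraries, and *Ano1*, which encodes a chloride channel, had 26, 150 and 83 against 20, 11 and 3. Neither was called, because the mean count lay under the minimum (log2 fold changes -3.51 and -2.74, edgeR adjusted p = 0.000132 and 0.00529).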
